A study of Mus musculus with 24 samples.

Results

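Gene expression in restimulated mouse Th1 cells that had been primed with 0.25 µM I-BET-762 was compared with that in cells primed with a control substance. The arrays were chosen by their sample titles, 3 of the inhibitor against 6 controls, of which 3 were DMSO and 3 were Control-768. The means compared thus came from 9 of the 24 arrays of the series. All cells were CD4+ T cells of C57BL/6 mice carrying the 2D2 transgenic T cell receptor, which recognises myelin oligodendrocyte glycoprotein. They were stimulated with immobilised antibodies to CD3 and CD28 in Th1 conditions together with I-BET-762, Control-768 or DMSO, taken off the antibodies after 48 h and expanded for 2 days. In the activated groups used here, RNA was taken after a renewed stimulation with both antibodies for 4 h. The resting groups, used below for comparison, gave RNA without that step. The series also has activated cells primed with 0.5 µM I-BET-762. The concentration of Control-768, and whether the compounds were present during the restimulation, are not given in the sources used here. The antibodies bypass the antigen, so the specificity of the receptor was not engaged, and the age and sex of the mice are not given in the sources used here. The replicates are biological per the series' design. What was shared between samples of the same number is not stated, so the p-values measure only the spread between the samples of the series. That spread, which also sets each SE and confidence interval, was estimated over all 24 arrays. It therefore includes the resting and 0.5 µM arrays and is not that of the 9 arrays alone.

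I-BET-762 occupies the bromodomains of the BET proteins, among them Brd2 and Brd3. BET proteins bind acetylated lysines of histones at promoters and enhancers and promote transcription there. Genes under large enhancers, among them lineage factors and cytokines of T cells, are known to be sensitive to BET inhibition. Th1 cells are the helper T cells that carry the factor T-bet (Tbx21) and make interferon gamma (Ifng) when their receptor is engaged.

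The values are linear intensities of Affymetrix probe sets. On the 9 arrays the median intensity lay between 41.1 and 42.8 and the highest between 20543 and 21714, and 28.8% to 30.4% of the probe sets lay under 16, the constant added before log2. Arrays of a group correlated at 0.987 to 0.993. The CD4 T cell and Th1 markers were bright in every array: the 6 measured CD4 T cell markers summed to 21510 to 23570 in the controls and 21820 to 22560 in the treated arrays, and the 6 Th1 markers to 23120 to 26280 and 21980 to 27570. The 6 B cell markers summed to at most 122.5, with Cd79a and Pax5 under 16 on average, the 8 myeloid markers to at most 279.5, with Cd14, Itgam, Fcgr3 and S100a9 under 16, and the 4 erythroid and platelet markers to at most 70.8. The 4 NK cell markers summed to 263 to 458.5 in the controls and 160 to 500.4 in the treated arrays, and the CD8 genes to 612.6 to 907.1 and 614.7 to 942. The 6 dendritic cell and MHC class II markers summed to 1070 to 1805 in the controls and 938.5 to 1555 in the treated arrays, and 1 of them, Cd74, the invariant chain of MHC class II, was lower (log2 change -0.63, SE 0.13, limma adjusted p = 0.0373). The part of such cells in the results was not tested.

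At 0.25 µM the inhibitor altered a small set of genes, mostly downward. Of 18193 genes, 136 (0.748%) changed at an adjusted p under 0.05, 96 lower (0.528%) and 40 higher (0.22%). By at least 2-fold, 34 were lower and 11 higher. The largest falls were in Cysltr1, Muc13 and Ifitm1 and the largest rises in Sema6d, Selp and Gzmk. All 136 lay beyond both same-numbered controls in all 3 replicates, where 8.83% of all genes lay above and 8.1% below both. In 92 of the 136 the treated and control intensities did not overlap at all, against 840 of all genes (4.62%). The 136 were called on these same values, so both counts describe them and are no further support. The median change over all genes was 0.00 and the median 95% confidence interval of a change reached 0.284 to either side. That width belongs to an unadjusted p of 0.05, and the adjusted threshold is stricter. Changes of that size, and somewhat larger ones, were therefore mostly not detectable with 3 treated arrays. At an unadjusted p under 0.05, 1619 genes (8.9%) differed. In RNA from whole cultures, fewer cells that express a gene and less of its RNA per cell cannot be told apart.

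The number of genes called depended on the replicate block, which takes out differences shared by same-numbered arrays. Without it, 36 genes passed the threshold, and with I-BET-762 replicate 1, 2 or 3 left out, 46, 51 or 80 did, of which 41, 48 and 65 were among the 136. Leaving out Control-768 replicate 1 left 88. With all arrays of number 1, 2 or 3 left out, the count was 8, 16 or 239. Below, for changed genes named by rule, the highest adjusted p over the 9 fits that left out 1 array is given wherever it rose above 0.05. The adjusted p without the block is given below for some genes only. Of the 50 named genes past the threshold, 19 passed without the block. Those that did not include Acsl6, Rora and Prf1 (limma adjusted p = 0.588, 0.463 and 0.408). The controls did not differ from each other for any gene in limma's fit (0 genes, 0% called), with 445 (2.45%) at an unadjusted p under 0.05.

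**Figure D1:**
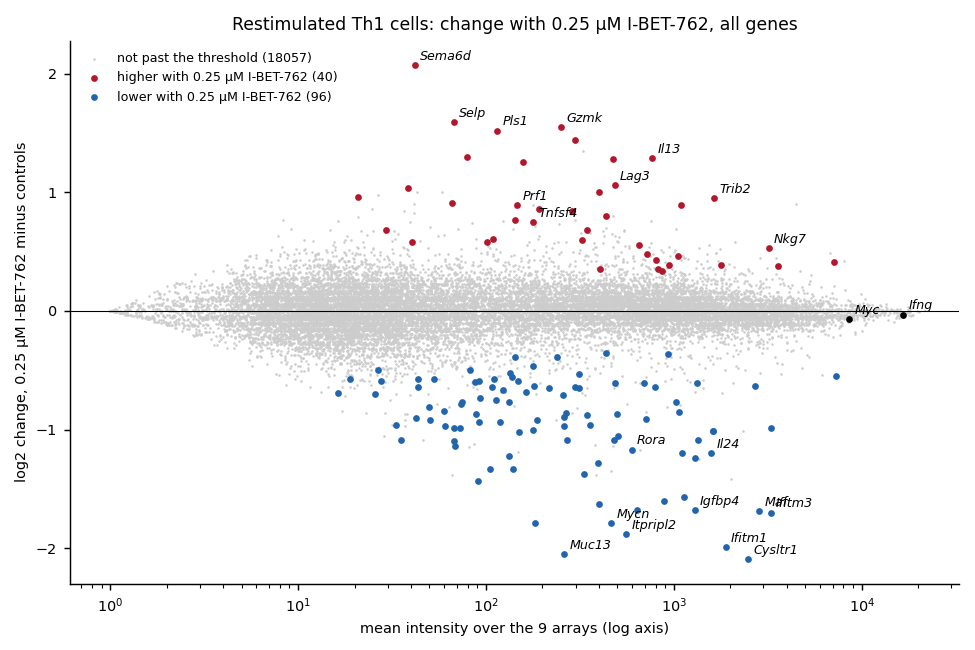
Log2 change of every gene with 0.25 µM I-BET-762 against the mean of both controls (vertical axis) by its mean intensity over the 9 activated arrays (horizontal log axis). Blue points are the 96 genes that were lower, red points the 40 that were higher, grey points the remaining genes, and black points mark Ifng and Myc, which lie near 0 at the bright end. The falls reach -2.09 (Cysltr1) and the rises 2.07 (Sema6d).

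Some genes for interferon-induced transmembrane proteins, small membrane proteins known for restricting the entry of viruses into cells, fell. Of these, 2, Ifitm1 and Ifitm3, were among the 12 largest falls. Ifitm1, Ifitm3 and Ifitm6 are consecutive protein-coding genes on chromosome 7 in the RefSeq annotation (GRCm38.p6), and all 3 were lower. The windows from 250 bases before to 50 bases after their transcription start, and that of Ifitm2 beside them, are shown because 3 neighbouring genes passed the threshold in the same direction, by different amounts, while Ifitm2 did not pass. Sequences are RefSeq's, 5′ to 3′ on the strand of the gene, in lower case with the core of the interferon-stimulated response element (ISRE) in capitals, searched as GAAANNGAA on both strands.
Ifitm2, chr7:140955912-140956211, minus strand: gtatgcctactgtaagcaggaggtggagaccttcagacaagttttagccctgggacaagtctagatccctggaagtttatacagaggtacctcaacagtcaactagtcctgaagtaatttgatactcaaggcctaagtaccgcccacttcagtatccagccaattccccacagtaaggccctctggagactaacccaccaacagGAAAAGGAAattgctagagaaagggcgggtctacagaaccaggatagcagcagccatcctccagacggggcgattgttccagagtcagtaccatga
Ifitm1, chr7:140967826-140968125, plus strand: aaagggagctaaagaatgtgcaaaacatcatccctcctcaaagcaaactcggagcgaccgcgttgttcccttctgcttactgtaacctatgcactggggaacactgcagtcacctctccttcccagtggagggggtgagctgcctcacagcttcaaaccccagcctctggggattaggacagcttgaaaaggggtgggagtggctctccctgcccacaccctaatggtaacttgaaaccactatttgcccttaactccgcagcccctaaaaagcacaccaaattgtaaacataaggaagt
Ifitm3, chr7:141010695-141010994, minus strand: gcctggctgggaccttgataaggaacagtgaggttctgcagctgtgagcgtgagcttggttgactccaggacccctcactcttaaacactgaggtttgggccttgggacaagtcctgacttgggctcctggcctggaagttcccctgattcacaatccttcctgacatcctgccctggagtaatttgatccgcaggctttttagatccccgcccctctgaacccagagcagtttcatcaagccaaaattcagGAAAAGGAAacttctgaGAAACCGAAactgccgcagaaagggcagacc
Ifitm6, chr7:141016843-141017142, minus strand: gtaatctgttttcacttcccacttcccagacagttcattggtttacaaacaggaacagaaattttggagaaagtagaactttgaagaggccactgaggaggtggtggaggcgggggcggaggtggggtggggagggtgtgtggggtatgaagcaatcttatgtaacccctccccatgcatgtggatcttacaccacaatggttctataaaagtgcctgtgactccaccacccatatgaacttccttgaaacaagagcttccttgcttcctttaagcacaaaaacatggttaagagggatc
The core was found 2 times in the window of Ifitm3 and 1 time in that of Ifitm2, and was not found in those of Ifitm1 and Ifitm6. It was present in 8.7% of the 14452 measured genes that have such a window, in 13.2% of the 76 lower genes with a window and in 6.25% of the 32 higher ones. The element bound by STAT dimers (GAS, searched as TTCNNNGAA) was present in 8.57% of all, 17.1% of the lower and 6.25% of the higher genes, and AP-1 sites (TGANTCA) in 7.54%, 9.21% and 9.38%. The E-box of MYC (CACGTG) was present in 10.2%, 9.21% and 3.12%, and the TATA box (TATAAA) in 11.5%, 18.4% and 15.6%. These shares are descriptions of letters in short windows.

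Ifitm1 read 1525, 1613 and 4188 in DMSO, 1746, 1733 and 4338 in Control-768, and 427, 394 and 1033 with 0.25 µM I-BET-762, in the order of replicates 1, 2 and 3. Replicate 3 was high in all 3 groups, and each treated array lay below every control. The log2 change was -1.99 (SE 0.13, adjusted p = 2.27e-06), and -1.89, -2.04 and -2.03 within the replicates. Without the replicate block the adjusted p of Ifitm1 was 0.19. Ifitm3 read 3277, 4215 and 5120 in DMSO, 3555, 4062 and 5248 in Control-768, and 985, 1071 and 1967 in treated cells, a change of -1.70 (SE 0.23, adjusted p = 0.00184), again without overlap. Ifitm6 was dim, at 103 to 169 in the controls and 64.04 to 77.2 in treated cells, and changed by -0.75 (SE 0.14, adjusted p = 0.0235, and up to 0.253 without I-BET-762 replicate 2). Ifitm2 had a mean of 2819 in the controls and 1410 in treated cells, and its change of -1.01 (SE 0.36) did not pass the threshold (adjusted p = 0.332). The probe sets of these similar genes could share signal, which was not tested. Of the 12 measured genes of the PYHIN and IFITM list, 3 fell and 0 rose, with a median of -0.11, and Ifitm10 was at 0.15 (adjusted p = 0.932). None of the 34 measured interferon-stimulated genes of a separate list passed limma's threshold (median -0.07, 9 of them below both controls in all 3 replicates, 26.5%, against 8.1% of all genes), with Usp18 at -1.09 (adjusted p = 0.475).

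Cysltr1, the receptor for cysteinyl leukotrienes, gave the largest fall. It read 3070, 3720 and 2900 in DMSO, 3521, 3607 and 3183 in Control-768, and 633, 1071 and 661 in treated cells, so that the groups were far apart. Its change was -2.09 (SE 0.20, adjusted p = 7.76e-05), a 4.27-fold fall on the scale of log2(intensity + 16). The mean of the treated arrays was 789 ± 245 (SD, n = 3) against 3333 ± 328 (SD, n = 6). A second probe set of Cysltr1 gave -2.39. Of 22 measured chemokine and lipid mediator receptors, it was the only member past the threshold (median -0.09). Ccr2, the receptor that guides cells towards inflamed tissue, read 112 to 364 in treated cells and 225 to 975 in the controls, with a change of -1.13 that missed the threshold (adjusted p = 0.0505).

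Maf encodes the transcription factor c-Maf, known for driving Il10 and Il4 in helper T cells. It read 3318, 3150 and 3596 in DMSO, 3856, 4082 and 4136 in Control-768, and 949, 1166 and 1290 in treated cells. The treated arrays were all below the lowest control, and the change was -1.69 (SE 0.15, adjusted p = 4.03e-05). Of the 6 probe sets of Maf, 5 pointed down, and the sixth was at an intensity of 2.00 on average. Mycn, a relative of Myc that is normally low in mature T cells, read 595, 850 and 340 in DMSO, 744, 748 and 412 in Control-768 and 122, 221 and 145 in treated cells. Its change was -1.79 (SE 0.18, adjusted p = 0.000164), and it was the only gene of the 12 in the MYC, MAX and MXD network that changed. Its other probe sets gave -0.33 and -0.15.

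Igfbp4, which encodes a secreted binding protein of insulin-like growth factors and is a gene of naive T cells, read 1760, 1860 and 1525 in DMSO, 1946, 1829 and 1128 in Control-768 and 553, 658 and 349 in treated cells. The groups did not overlap, and the change was -1.68 (SE 0.15, adjusted p = 4.78e-05). All 6 probe sets of Igfbp4 gave negative values. It was the only one of 22 measured naive and quiescence genes past the threshold (median 0.05), and Klf2 was at 0.73 (adjusted p = 0.36). Itpripl2 read 476 to 1282 in the controls and 110, 114 and 370 in treated cells, a change of -1.88 (SE 0.16, adjusted p = 3.09e-05). Cysltr1, Maf, Igfbp4 and Itpripl2 were the 4 named genes that passed the threshold under every alternative that could test them.

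F3, which encodes tissue factor, the membrane protein that starts coagulation, read 180 to 292 in the controls and 35.3, 88.2 and 59.8 in treated cells (change -1.79, SE 0.24, adjusted p = 0.00184). Muc13, a membrane mucin, read 216 to 570 in the controls and 61.6, 64.6 and 81.8 in treated cells (-2.05, SE 0.31, adjusted p = 0.00328, and 0.0513 without I-BET-762 replicate 2). Ttc39c read 679 to 1048 in the controls and 244, 184 and 329 in treated cells (-1.68, adjusted p = 0.00371, and up to 0.0545 without I-BET-762 replicate 1). Acsl6, an acyl-CoA synthetase, read 439 to 588 and 152, 171 and 153 (-1.63, adjusted p = 0.00456, and 0.0668 without I-BET-762 replicate 1). In these 4 genes, treated and control arrays did not overlap. F3 fell and Selp, described below, rose among 12 coagulation and vascular receptors (median -0.03), and Procr, the protein C receptor, was at -1.35 (adjusted p = 0.0699). Acsl6 had a second, dimmer probe set at 0.12. Shroom3, an actin-binding protein of epithelia, read 620 to 1517 and 380, 503 and 229 (-1.60, SE 0.33, adjusted p = 0.0332, and up to 0.242 without I-BET-762 replicate 1).

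Other falls were in bright genes. Msc, Sgk1, Mgll, S100a4 and Myo10 lie outside the rule for named genes and were chosen after their values were seen. Msc, which encodes the helix-loop-helix repressor musculin, fell from a mean of 1466 to 480.5 (-1.57, SE 0.26, adjusted p = 0.00669). Sgk1, a kinase of the PI3K pathway, fell from 1617 to 634.5 (-1.24, SE 0.26, adjusted p = 0.0389), and Mgll, which hydrolyses monoacylglycerols, from 1955 to 954.7 (-1.01, SE 0.15, adjusted p = 0.00333). S100a4, a calcium-binding protein of effector cells, was 8170 on average in the controls and 5553 in treated cells (-0.55, adjusted p = 0.0397), and its groups overlapped. Basp1 and Myo10, which are consecutive protein-coding genes, both fell, by 0.99 and 1.01 on the log2 scale. The call of Basp1 reached an adjusted p of 0.196 without I-BET-762 replicate 1.

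**Figure D2:**
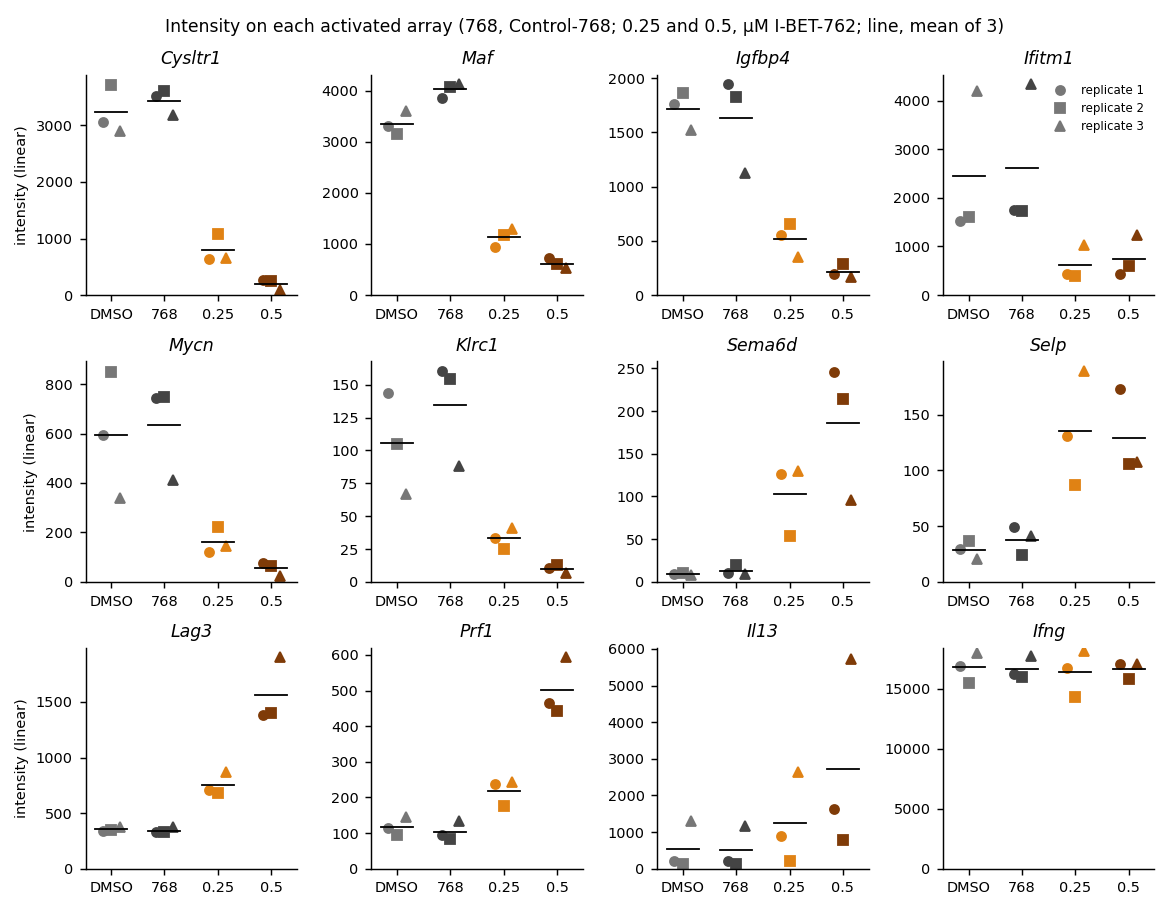
Intensity (linear axis from 0) of 12 genes on each activated array, with DMSO, Control-768 (given by its number), 0.25 µM and 0.5 µM I-BET-762 along the horizontal axis, circles, squares and triangles for replicates 1, 2 and 3, and a line at the mean of 3 arrays. Cysltr1, Maf, Igfbp4, Ifitm1, Mycn and Klrc1 are lower in treated than in control arrays, Sema6d, Selp, Lag3 and Prf1 are higher, Il13 is higher within each replicate number but overlaps between groups, and Ifng lies between 14300 and 18180 on all 9 arrays without 0.5 µM.

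Among the genes that rose, Sema6d went from barely measurable to low. This semaphorin, a membrane-bound guidance ligand, read 9.45, 10.2 and 7.71 in DMSO, 9.99, 19.8 and 9.60 in Control-768 and 127, 53.4 and 130 in treated cells. Its change was 2.07 (SE 0.27, adjusted p = 0.0015), which the added constant compresses, since the controls lay near or under 16. Its 3 other probe sets, all dimmer, gave -0.04 to 0.17. Sema6d was the only one of 15 semaphorins past the threshold (median 0.04). Selp, which encodes the adhesion receptor P-selectin of platelets and endothelium, read 20.9 to 49.2 in the controls and 131, 87.1 and 190 in treated cells (1.59, SE 0.22, adjusted p = 0.00201), and its other probe sets gave 1.25 and 1.4.

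Pls1, an actin-bundling protein, read 42.7 to 107 in the controls and 237, 222 and 179 in treated cells (1.52, SE 0.22, adjusted p = 0.00241). Vcl, which encodes vinculin, a link between integrins and actin, read 234 to 401 in the controls and 690, 501 and 621 in treated cells (1.0, SE 0.16, adjusted p = 0.00516, and up to 0.0748 without I-BET-762 replicate 1). Ajuba, a LIM protein of cell junctions, read 77.6 to 119 and 234, 201 and 382 (1.26, SE 0.19, adjusted p = 0.00408, and 0.0553 without I-BET-762 replicate 3). Tubb2b, a beta-tubulin, read 233 to 443 and 722, 819 and 819 (1.28, SE 0.17, adjusted p = 0.00184). None of these 4 overlapped with the controls.

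Trib2, a pseudokinase, read 862 to 1634 in the controls and 2338 to 2462 in treated cells (0.95, SE 0.12, adjusted p = 0.0015). Tent5c, a poly(A) polymerase, read 707 to 991 and 1254 to 1761 (0.89, SE 0.12, adjusted p = 0.00184). Sfmbt2, a polycomb-group protein, read 39.1 to 60.2 and 96.5 to 114 (0.91, SE 0.13, adjusted p = 0.00261), and was the only member past the threshold among 28 chromatin and acetylation genes (median 0.03). Eaf2, a partner of the elongation factors of the ELL family, read 23.3 to 71.5 and 101 to 163 (1.30, SE 0.26, adjusted p = 0.027, and up to 0.243 without I-BET-762 replicate 3). Trp53inp1, a p53-induced gene of stress responses, read 2937 to 3845 and 3894 to 4678 (0.38, SE 0.06, adjusted p = 0.00531, and up to 0.0574 without I-BET-762 replicate 2). It was the only one of 17 p53 targets past the threshold. The list had a median of 0.21, and 9 of the 17 (52.9%) were above both controls in all 3 replicates, against 8.83% of all genes.

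Ifng, the cytokine that defines Th1 cells, did not pass the threshold, and neither did several other T cell cytokines. Ifng read 15470 to 17960 in the controls and 14300 to 18180 in treated cells (-0.03, 95% confidence interval -0.45 to 0.39, adjusted p = 0.991), close to the highest intensities of these arrays. Il2, the T cell growth factor, was at -0.20 (-0.72 to 0.33, adjusted p = 0.92), Tnf at -0.32 (-0.68 to 0.04, adjusted p = 0.645), and Il21 at -0.31 (-0.86 to 0.24, adjusted p = 0.843). A second, dimmer probe set of Il21 gave 0.27. Lta, lymphotoxin alpha, read 4822 to 8792 in the controls and 4222 to 4982 in treated cells (-0.54, adjusted p = 0.679), and Il17a was low at 73.1 to 122 in treated cells (0.13, adjusted p = 0.968). Of the 24 measured T cell cytokines, 1 rose and 2 fell, with a median of -0.16, and 10 of the 24 (41.7%) were below both controls in all 3 replicates, against 8.1% of all genes.

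Il24 and Ebi3 were the cytokine genes that fell. Il24, of the IL-10 family, read 1944, 2156 and 1472 in DMSO, 2464, 2012 and 1604 in Control-768 and 1100, 521 and 981 in treated cells. The change was -1.20 (SE 0.25, adjusted p = 0.0395), which was lost at up to 0.317 without I-BET-762 replicate 2. Ebi3, which pairs with other chains to form IL-27 or IL-35, read 1067 to 1525 in the controls and 720, 660 and 686 in treated cells (-0.85, SE 0.16, adjusted p = 0.0211, and up to 0.188 without I-BET-762 replicate 1). Both were without overlap.

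Il13, a Th2 cytokine, was the only cytokine of the list that rose. It read 209, 116 and 1314 in DMSO, 205, 125 and 1170 in Control-768 and 895, 215 and 2638 in treated cells. The controls of replicate 3 were higher than the treated arrays of replicates 1 and 2, and within each number the treated array was above both controls. The change was 1.29 (SE 0.18, adjusted p = 0.00218) and held in all 9 fits that left out an array, but the adjusted p was 1 without the replicate block. Il4 was at 0.69 (adjusted p = 0.245).

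Other cytokine genes had sizeable changes that missed the threshold, with a similar split between the numbers. Csf2, the growth factor GM-CSF, read 581, 365 and 4442 in DMSO, 249, 558 and 4185 in Control-768 and 206, 154 and 1572 in treated cells (-1.25, SE 0.29, adjusted p = 0.0686). Il3, its neighbour in the genome and a growth factor of basophils and mast cells, read 334 to 6079 in the controls and 329, 248 and 2222 in treated cells (-1.42, SE 0.54, adjusted p = 0.382). Il10, an inhibitory cytokine, read 1722, 1177 and 7584 in DMSO, 1616, 1959 and 8068 in Control-768 and 5211, 2374 and 10520 in treated cells (0.90, SE 0.25, adjusted p = 0.156). In each of these 3 genes all treated arrays lay on the same side of both same-numbered controls, and the groups overlapped.

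The ligands of the TNF superfamily moved in both directions. Tnfsf4, which encodes OX40L, a costimulatory ligand, rose: it read 98.2 to 180 in the controls and 239, 197 and 319 in treated cells (0.75, SE 0.12, adjusted p = 0.00516, and 0.0657 without I-BET-762 replicate 3), without overlap. Tnfsf8, which encodes CD30L, fell, reading 3026, 1825 and 4757 in DMSO, 2432, 1972 and 4455 in Control-768 and 1736, 1231 and 2971 in treated cells. Its change was -0.63 (SE 0.11, adjusted p = 0.013, and up to 0.131 without I-BET-762 replicate 2). Cd70, the ligand of CD27, read 612, 260 and 1982 in DMSO, 379, 314 and 1504 in Control-768 and 363, 101 and 873 in treated cells (-0.91, SE 0.19, adjusted p = 0.0357, and up to 0.309 without I-BET-762 replicate 2). Tnfsf8 and Cd70 overlapped between groups, and neither passed without the replicate block (adjusted p = 1 for each). In all, 1 of 13 ligands rose and 2 fell (median -0.25). None of 14 receptors of the family passed limma's threshold (median -0.03).

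The lineage factors of Th1 cells did not pass the threshold either, while Gata3 of the Th2 lineage did. Tbx21 read 2889 to 3969 in the controls and 3387 to 4041 in treated cells (0.10, 95% confidence interval -0.10 to 0.31, adjusted p = 0.875), and 0 of the 13 measured Th1 factors and partners passed limma's threshold, with Tox the highest at 0.72 (adjusted p = 0.244). Gata3, the leading Th2 factor, read 66.3, 99.1 and 196 in DMSO, 53.5, 80.7 and 175 in Control-768 and 108, 153 and 361 in treated cells. It rose by 0.77 (SE 0.13, adjusted p = 0.0108, and up to 0.0998 without I-BET-762 replicate 3). The treated arrays were highest within each number and overlapped across numbers, and the adjusted p was 1 without the replicate block. Of 11 Th2 genes, Gata3 and Il13 rose and Maf fell (median -0.01).

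Rora, a nuclear receptor of Th17 cells and innate lymphoid cells, read 690 to 801 in the controls and 282, 361 and 313 in treated cells (-1.17, SE 0.18, adjusted p = 0.00456, and 0.059 without I-BET-762 replicate 1). Of its 9 probe sets, 6 gave -1.0 to -1.17, and the remaining ones, at mean intensities of 30.4 or less, gave 0.06, 0.01 and 0.3. Rora and Basp1 were the members that fell among 8 measured Th17 genes (median -0.08). Ikzf4, which encodes the factor Eos of regulatory T cells, read 510 to 1115 in the controls and 325 to 609 in treated cells (-0.61, SE 0.12, adjusted p = 0.0308, and up to 0.265 without I-BET-762 replicate 1). Ikzf4 and Ebi3 fell among 13 regulatory T cell genes (median -0.09). Tox2 was the most changed of 12 follicular helper genes, at 0.65 (adjusted p = 0.0849). A second, dimmer probe set of Tox2 gave -0.24.

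Genes of cytotoxic cells rose in part. Prf1, which encodes the pore-forming protein perforin, read 114, 95.9 and 145 in DMSO, 93.5, 84.7 and 135 in Control-768 and 237, 176 and 243 in treated cells, without overlap. Its change was 0.89 (SE 0.12, adjusted p = 0.00184). A dimmer second probe set of Prf1 gave 0.08. Gzmk, granzyme K, read 53.5 to 256 in the controls and 645, 326 and 374 in treated cells (1.55, SE 0.31, adjusted p = 0.0308, and up to 0.201 without I-BET-762 replicate 2). Nkg7, a protein of cytotoxic granules, read 1753 to 4304 in the controls and 2643 to 5167 in treated cells (0.53, SE 0.09, adjusted p = 0.00757, and up to 0.118 without I-BET-762 replicate 1). The other 15 of 18 members did not pass (median 0.00). Klrc1, which encodes the NK receptor NKG2A, moved the other way: it read 67.2 to 160 in the controls and 33.5, 24.7 and 41.0 in treated cells (-1.43, SE 0.18, adjusted p = 0.000996). It was the only one of 10 NK-type lectin receptors past the threshold, and the list's median was -0.38. A second probe set of Klrc1, at a mean intensity of 6.69, gave -0.02.

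Lag3, whose protein restrains T cells after contact with MHC class II, was steady in the controls and rose in each treated array. It read 342, 353 and 376 in DMSO, 326, 329 and 376 in Control-768 and 707, 677 and 868 in treated cells. The change was 1.06 (SE 0.18, adjusted p = 0.00777, and up to 0.073 without I-BET-762 replicate 1). Of 13 inhibitory receptors it was the only member past the threshold (median 0.01), and Havcr2, which encodes TIM-3, was at 0.68 (adjusted p = 0.291).

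Among surface receptors of cytokines and matrix, Il21r rose and Il1r2 fell. Il21r read 763 to 1115 in the controls and 1208 to 1372 in treated cells (0.46, SE 0.08, adjusted p = 0.00938, and up to 0.117 without I-BET-762 replicate 3). Il1r2, the decoy receptor of IL-1, read 203 to 441 and 129 to 268 (-0.71, SE 0.14, adjusted p = 0.0281, and up to 0.197 without I-BET-762 replicate 2). The integrin chains Itga3 and Itga7 fell, Itga3 from 316 to 709 in the controls to 156 to 242 in treated cells (-1.28, SE 0.23, adjusted p = 0.013, and up to 0.146 without I-BET-762 replicate 2). Other, dimmer probe sets of Itga3 gave -0.94 and 0.32. Itga7 was dim, at 32.6 to 107 and 13.99 to 68.0 (-0.84, SE 0.17, adjusted p = 0.0333, and up to 0.322 without I-BET-762 replicate 1). Trat1, an adaptor that stabilises the T cell receptor complex, read 1260 to 2233 and 661 to 801 (-1.09, SE 0.18, adjusted p = 0.00574, and up to 0.0728 without I-BET-762 replicate 1). Cd83, a surface protein of activated lymphocytes and dendritic cells, read 73.7 to 155 and 46.8 to 67.1 (-0.73, SE 0.14, adjusted p = 0.0187, and up to 0.224 without I-BET-762 replicate 2). Cxcl10, a ligand of the Th1 receptor CXCR3, read 595 to 951 and 218 to 485 without overlap, and its change of -1.17 missed the threshold (adjusted p = 0.0599).

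Most lists of growth and division genes had medians close to 0, and none of their members passed the threshold apart from Mycn. Myc read 8413 to 9030 in the controls and 8124 to 8404 in treated cells. All 3 treated arrays lay below the lowest control, but the change was -0.07 (95% confidence interval -0.44 to 0.30, adjusted p = 0.968). None of 43 MYC targets (median -0.03), 43 ribosome biogenesis genes (-0.09), 37 DNA replication genes (0.08), 36 G2/M genes (-0.02) or 21 glycolysis and hypoxia genes (0.00) passed limma's threshold. Of the ribosome biogenesis genes, 17 (39.5%) were below both controls in all 3 replicates, against 8.1% of all genes, and of the DNA replication genes 13 (35.1%) were above, against 8.83%. Of 21 G1 cyclins and CDK inhibitors, 0 passed limma's threshold (median 0.10), but their range was wider: the CDK inhibitor genes Cdkn2a, Cdkn2b and Cdkn2d were at 1.35, 1.0 and 0.45 (adjusted p = 0.681, 0.652 and 0.27). The other CDK inhibitor genes of the list did not share these rises, with Cdkn1a at 0.11, Cdkn1b at 0.12, Cdkn2c at -0.04 and Cdkn1c at -0.36. The lowest ribosome biogenesis gene was at -0.30 and the highest DNA replication gene at 0.28.

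The measured targets of the compound also had changes close to 0. Brd2 read 3632 to 4873 in the controls and 3240 to 4650 in treated cells (-0.13, 95% confidence interval -0.36 to 0.09), Brd3 912 to 1338 and 1139 to 1293 (0.12, -0.04 to 0.27), and Hexim1, an inhibitor of P-TEFb that rises with BET inhibition in many cell types, 1656 to 2136 and 1709 to 1973 (-0.04, -0.27 to 0.19). Their adjusted p-values were 0.817, 0.729 and 0.978. Of 22 BET and P-TEFb genes, 0 passed limma's threshold (median -0.03).

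**Figure D3:**
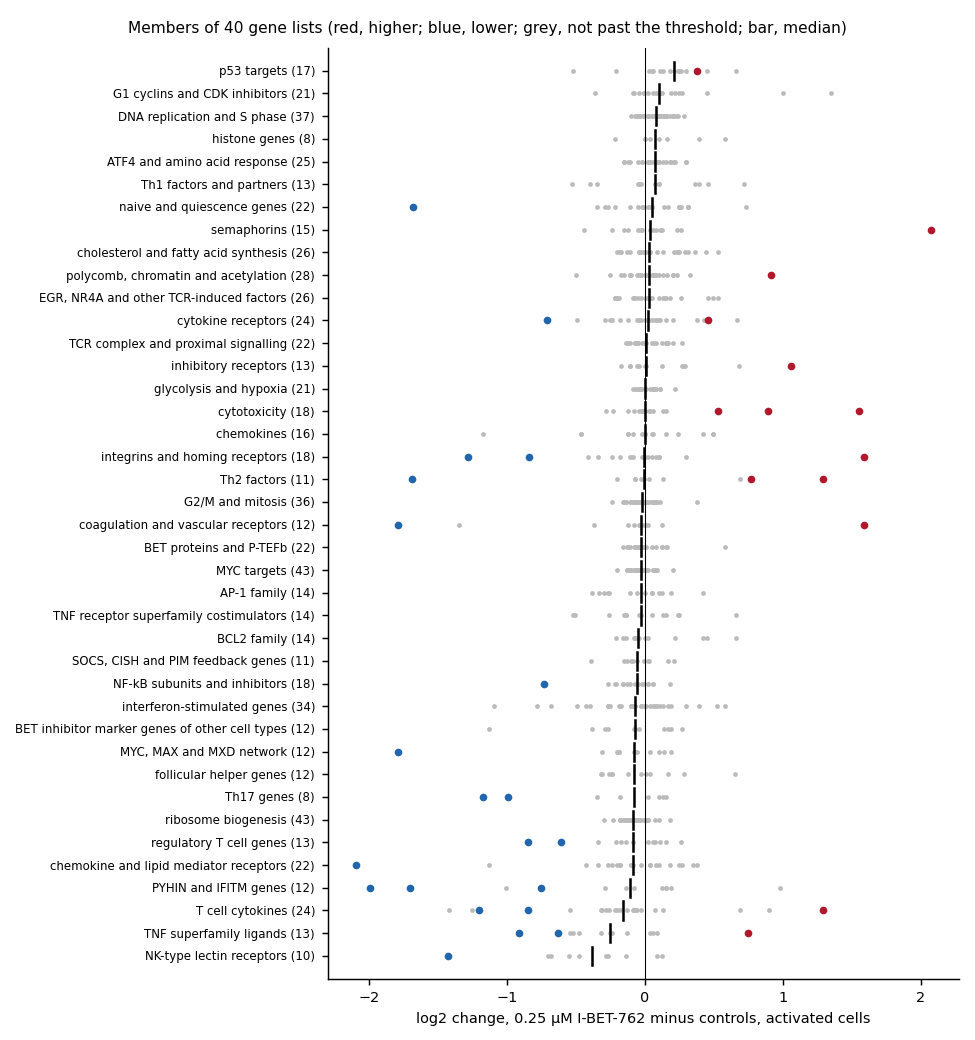
Log2 change with 0.25 µM I-BET-762 of every measured member of 40 gene lists (rows, with the number of measured members), ordered by the list's median (black bar). Red members were higher and blue members lower at an adjusted p under 0.05, and grey members did not pass. In most lists the bar stands near 0 and the coloured members are single genes, with 3 of 18 cytotoxicity genes higher and 3 of 12 PYHIN and IFITM genes lower.

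To ask how far the response depended on restimulation, the same contrast was made in the resting arrays, which are other arrays. There, 217 genes changed (1.19%), 149 lower (0.819%) and 68 higher (0.374%). Without the replicate block 24 did, without resting I-BET-762 replicate 1, 2 or 3 the count was 66, 84 or 97, and without DMSO or Control-768 replicate 1 it was 142 or 143. Of the 96 genes lower in activated cells, 93 were also negative in resting cells and 65 passed the threshold there, against 52.6% of all genes that were negative. Of the 40 higher genes, 39 were positive and 23 passed, against 47.3% of all genes positive. The median change of the lower genes was -0.88 in activated and -0.72 in resting cells, and that of the higher genes 0.78 and 0.53. These genes were chosen by their activated values, which favours larger changes there. For genes chosen by their resting values the order was reversed. The 149 lower ones had medians of -0.71 in resting and -0.51 in activated cells, and the 68 higher ones 0.69 and 0.47. It is not known here if same-numbered resting and activated samples derive from a common culture. Ifitm1 changed by -2.33 in resting cells, Ifitm3 by -2.23, Cysltr1 by -1.73, Maf by -1.38, Igfbp4 by -1.99 and Pls1 by 2.14.

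No gene's change differed between the states in the test of the difference (0 genes, 0% called by limma, smallest adjusted p 0.481, with 830 genes or 4.56% at an unadjusted p under 0.05). Leaving out activated I-BET-762 replicate 1 gave 1 gene and replicate 3 gave 2, and leaving out any other single array gave 0. Klrc1 had a large gap, with a change of -1.43 in activated and -0.12 in resting cells (difference -1.31, SE 0.25, adjusted p = 0.481). The resting controls had a median of 20.4 for Klrc1, close to the added constant. Il13 changed by 1.29 and 0.09 (difference 1.20, adjusted p = 0.481), with a median of 12.9 in the resting controls. Il10 passed the threshold in resting cells (1.67, adjusted p = 0.00325) and Tbx21 did too (0.48, adjusted p = 0.0198).

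**Figure D4:**
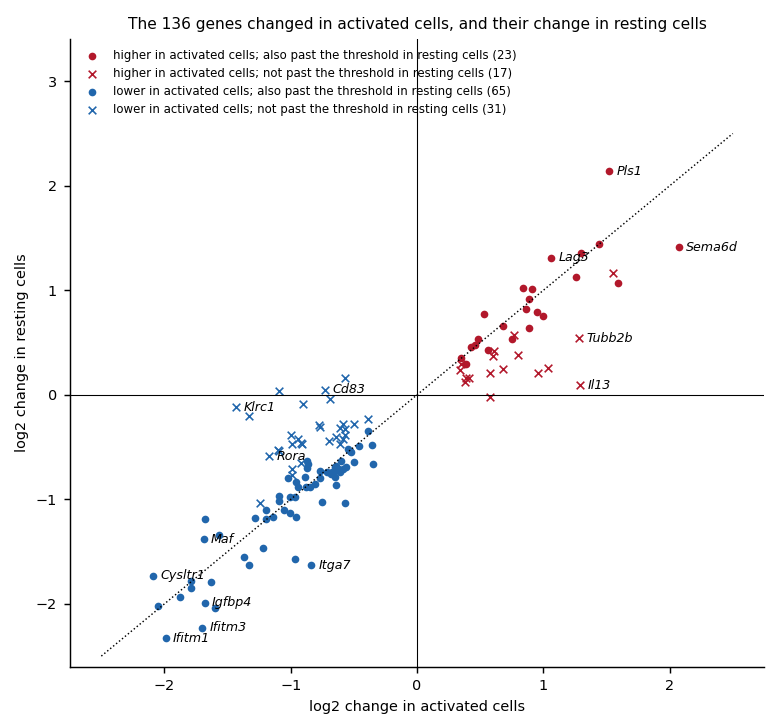
Log2 change in activated cells (horizontal) against that in resting cells (vertical) for the 136 genes changed in activated cells. Dots also passed the threshold in resting cells (65 lower, 23 higher), crosses did not (31 and 17), and the dotted line marks equal changes. Most points lie along that line, with Klrc1, Cd83 and Il13 near 0 in resting cells.

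The activated cells primed with 0.5 µM differed from those with 0.25 µM in 36 genes (0.198%), 29 lower (0.159%) and 7 higher (0.0385%). This step shares the 0.25 µM arrays with the main contrast, and the changes of both concentrations share the controls, so their values are only set side by side. The step passed the threshold in the same direction for 18 of the 96 lower and 5 of the 40 higher genes and in the opposite direction for 0, and 13 of the 36 genes were not among the 136. The median change of the 96 lower genes was -0.88 at 0.25 µM and -1.34 at 0.5 µM, and that of the 40 higher genes 0.78 and 1.04. The step rested on few arrays: without 0.25 µM replicate 3 it held 0 genes and without replicate 2 it held 9. Without 0.5 µM replicate 1, 2 or 3 it held 18, 13 or 18, and without the replicate block 2.

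Among the genes that fell further, Cysltr1 read 259, 240 and 94.5 at 0.5 µM, a change against the controls of -4.07 where 0.25 µM gave -2.09 (step -1.98, adjusted p = 0.00272). Trat1 read 205, 276 and 169 (step -1.74, adjusted p = 0.00272), Hemgn, a nuclear protein of blood progenitors, 25.4, 25.8 and 6.53 after 47.8, 84.5 and 53.1 (step -1.17, adjusted p = 0.00874), and Serpinf1, a secreted serpin, 44.9, 73.1 and 28.8 after 121, 252 and 93.9 (step -1.35, adjusted p = 0.00874). Marveld1 followed with a step of -0.99 (adjusted p = 0.00874), and its change at 0.25 µM was -0.65 (adjusted p = 0.0187, and up to 0.157 without 0.25 µM replicate 1). At 0.25 µM the other probe sets of Marveld1 gave -0.17, -0.44 and 0.3, the first at a mean intensity of 276 against 354. Rapgef5, an exchange factor of Rap GTPases, did not pass at 0.25 µM (-0.48, adjusted p = 0.299) and stepped by -1.51 (adjusted p = 0.00392).

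Among the genes that rose further, Prf1 read 465, 444 and 593 at 0.5 µM (step 1.14, adjusted p = 0.00335) and Il13 1643, 789 and 5738 (step 1.26, adjusted p = 0.0233). Nkg7 stepped by 0.59 (adjusted p = 0.0235), Chst2, a sulfotransferase, by 0.89 (adjusted p = 0.0304), Otulin, a deubiquitinase of linear ubiquitin chains, by 0.50 (adjusted p = 0.0127) and Tox2 by 1.14 (adjusted p = 0.0172). At 0.25 µM, Chst2 was at 0.84 (adjusted p = 0.00716, and up to 0.0728 without 0.25 µM replicate 1) and Otulin at 0.39 (adjusted p = 0.00896, and up to 0.129 without it). Lag3 read 1384, 1401 and 1903 (step 1.03, adjusted p = 0.0616). Other genes did not pass in the step and had values near each other at both concentrations. Ifitm1 changed by -1.99 and -1.72 (step 0.27, 95% confidence interval -0.05 to 0.59), Muc13 by -2.05 and -2.0 (step 0.06, -0.69 to 0.81) and Selp by 1.59 and 1.55 (step -0.04, -0.59 to 0.50). Pls1 changed by 1.52 and 1.54 (step 0.02, -0.52 to 0.56) and Tnfsf4 by 0.75 and 0.67 (step -0.08, -0.37 to 0.21).

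**Figure D5:**
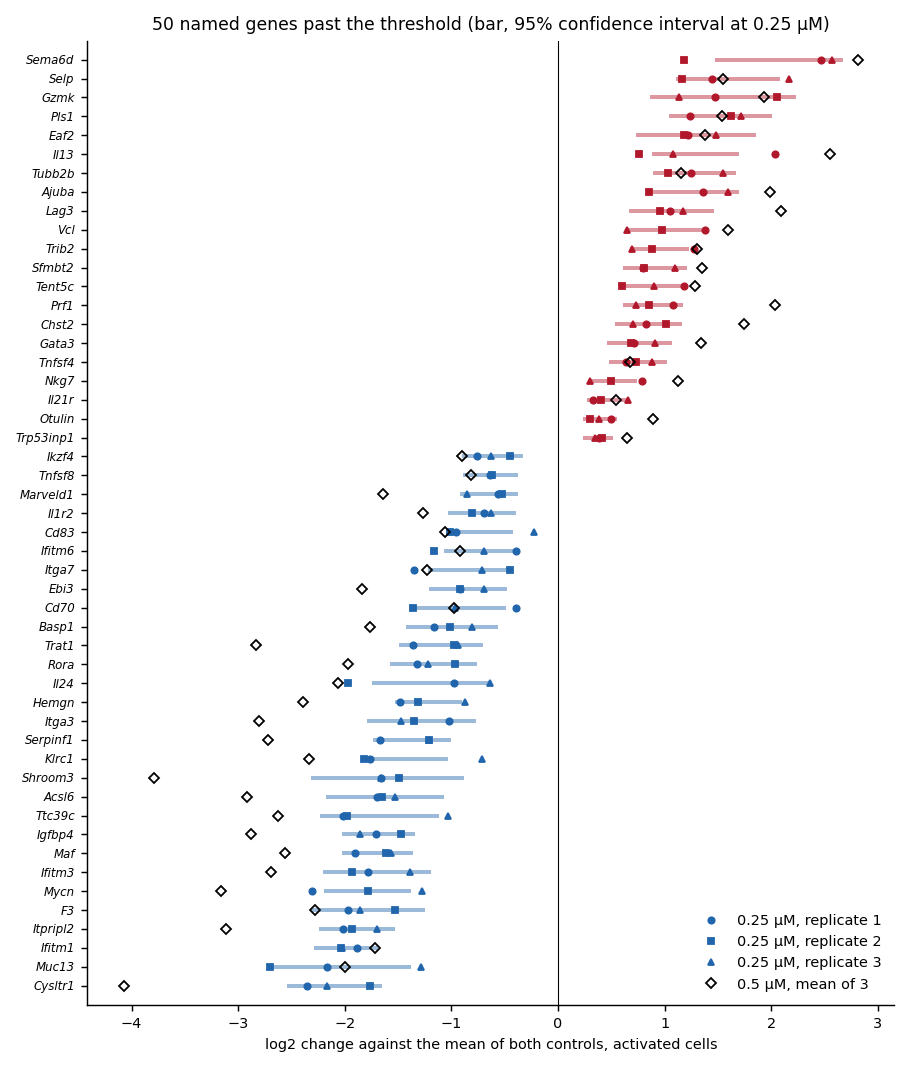
Log2 change against the mean of both controls for the 50 named genes past the threshold, with circles, squares and triangles for the 0.25 µM replicates, bars for the 95% confidence interval and open diamonds for the mean at 0.5 µM. The diamonds lie well beyond the bars for Cysltr1 (-4.07), Shroom3 (-3.79) and Trat1 (-2.83) among the falls and for Lag3 (2.09) and Prf1 (2.03) among the rises, and within them for Muc13, Selp and Tnfsf4.

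Where a changed gene had further probe sets, these mostly pointed the same way. The 76 such genes had 143 other probe sets, of which 113 had the same sign and 67 of these an unadjusted p under 0.05, and 30 had the opposite sign, 4 of them at that level. Genes whose probe sets disagreed include Tmem108 (-1.33 and 1.11) and Fgf13 (1.44 and -0.57), named here after their values were seen.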

How the data were processed

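RNA of 24 samples in 8 groups of 3 was measured on Affymetrix mouse arrays. The authors deposited a linear intensity for each of 45101 probe sets. Their method of summarising and normalising was not given in the sources used here. Per the labels' protocols, RNA was amplified in several rounds before biotin labelling. The intensities were taken as log2(intensity + 16). A platform table gave 34945 probe sets 1 symbol, 932 several and 9160 none, and 64 control probe sets were left out. Each gene was represented by its single-symbol probe set with the highest mean, which gave 18193 genes.

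All 24 arrays entered a fit in limma 3.58.1 (R 4.3.3) with 8 group means and the replicate number within each state as a block, with 12 residual and 3.35 prior degrees of freedom. The contrast set the treated group against the mean of both control groups. P-values were two-sided and Benjamini-Hochberg adjusted over all genes, with a threshold of 0.05. Deviations of same-numbered arrays from their group means correlated at 0.16 to 0.56 in activated and 0.20 to 0.70 in resting cells, and those of other pairs at -0.43 to 0.22 and -0.53 to 0.30, so the numbers were taken to pair the samples. The fit was tested on simulated data.

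The comparison, the 40 gene lists and the 8 marker lists were chosen with earlier results of these data known. Lists are described by counts and medians, with no test. Their members share the same arrays and are not replicates of a condition. Genes were named as the 12 largest rises and falls without overlap, placeholder symbols passed over, up to 3 called members of each list or the member with the smallest p, cytokines and BET genes whatever their values, and up to 6 genes per direction of the other comparisons. With 3 treated arrays, precision is limited by their number. The alternatives covered the block, the arrays and controls in the fit, the constant, quantile normalisation, dim genes, the probe set per gene, array weights, robust moderation and leaving out arrays.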

Additional observations from a re-analysis of the deposited data

How the results depend on the processing

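The replicate numbers were taken to pair the samples, from the correlations of their deviations, so the replicate block is part of the fit. What same-numbered samples share is not stated, and the calls rest on this choice. Without the block, the activated comparison with 0.25 µM held 36 genes in place of 136, the resting comparison 24 in place of 217, and the step to 0.5 µM 2 in place of 36. With a block shared by both states the counts were 69, 108 and 16, and 1 gene differed between the controls. With only the arrays of a state they were 61, 124 and 13, and with only the groups compared the step held 0. Control-768 alone as control gave 72 activated and 97 resting genes, and DMSO alone 68 and 126. A constant of 1 gave 82 activated genes and 16 in the step, and leaving out dim genes gave 72 in the step. A constant of 64 gave 1 gene that differed between the states. Array weights gave 593, 814, 120 and, between the states, 3. The cause of these differences was not tested.

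Leaving out arrays 1 at a time or by number, the activated count ranged from 8 to 239, the resting count from 11 to 284, the count between the states from 0 to 2, the step from 0 to 28 and the controls from 0 to 1. Of the 50 named genes past the threshold, 19 remained without the block, 20 in all 9 fits without 1 array and 4 under every alternative that could test them, and 0 changed sign. Of the 36 other named genes, 15 passed under some alternative and 7 changed sign. The median over all genes moved by at most 0.01. Dim genes, near or under 16, carry little information on the size of a change.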
